A study of Mus musculus with 6 samples.

Results

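RNA of 5 genes of the Ly6 family was read in thymic endothelial cells (ECs). They are Ly6c1, Ly6c2, Ly6a, Ly6e and Ly6d, and they were chosen by symbol, which gave 5 of the 24457 genes listed on chromosomes. Ly6 proteins are small and cysteine-rich, and a glycosylphosphatidylinositol (GPI) anchor holds most of them to the outer face of the cell membrane. Most of the mouse genes lie in a cluster on chromosome 15. Several are standard surface markers in immunology, and interferon is known to induce some of them in lymphoid and other cells. Ly6C on endothelium marks part of the vascular bed, and here it served, with P-selectin (Selp), to divide thymic ECs.

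The RNA came from thymus of female wildtype C57BL/6 mice of 4 to 6 weeks. No other genotype or treatment entered. Sorting took CD31+CD45-EpCAM- cells as ECs, which were divided into Ly6C+Selp-, Ly6C+Selp+ and Ly6C-Selp+ subsets, and each subset was sequenced in 2 libraries. The labels give a sort purity of at least 90% and do not say whether the libraries of a subset came from separate animals or sorts. P-values therefore measure the spread between these libraries, which may be technical.

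Expression is given in FPKM (fragments scaled to the length of the transcript and to the mapped fragments of the library), so levels of different genes can be compared per length. Summed estimated fragments ran from 1452476 to 2423171 per library. The summed level of 10 endothelial markers was 2796 to 3272 FPKM in the Ly6C+Selp- libraries, 2473 to 2556 in the Ly6C+Selp+ libraries and 2822 to 3101 in the Ly6C-Selp+ libraries, and none was at 0 in all libraries. The sum hides 3 of the 10 that passed for Ly6C-Selp+ against Ly6C+Selp- ECs, beside 4.14% of all genes. Cldn5, the claudin of endothelial tight junctions, fell from a mean of 387 to 29.4 FPKM (limma adjusted p = 0.000252), Kdr, a VEGF receptor, fell from 189 to 66.8 (limma adjusted p = 0.00794), and Eng, a TGF-beta co-receptor, rose from 302 to 656 (limma adjusted p = 0.0404). Cldn5 also fell between the Selp+ subsets (limma adjusted p = 0.0412), and with the replicate number as a block in the fit (the replicate block) Cldn5 and Kdr fell between the Ly6C+ subsets. Of the sort genes, Selp had 5.20 to 7.87 FPKM in Ly6C+Selp- libraries and 313 to 657 in the other 4. Ptprc, which encodes CD45, had 2.88 to 28.9 FPKM, and Epcam had 0.417 to 4.32 FPKM. The 4 lymphatic endothelial markers summed to 9.85 to 30.1 FPKM over all libraries, and 0 passed in limma, beside 4.14% or fewer of all genes. With the replicate block Prox1 rose (mean 0.421 to 3.14 FPKM) and Flt4 fell (18.4 to 8.30 FPKM) in Ly6C-Selp+ against Ly6C+Selp- ECs, and Flt4 fell between the Ly6C+ subsets. Lyve1 was at 0 to 0.112 FPKM in the 4 Ly6C+ libraries and at 12.4 and 1.07 in the Ly6C-Selp+ libraries.

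Ly6c1, Ly6a and Ly6e were among the abundant RNAs of thymic ECs, and Ly6d and Ly6c2 were rare. In the 4 Ly6C+ libraries the order of levels in FPKM was Ly6c1, Ly6e, Ly6a, Ly6d and Ly6c2. In both Ly6C-Selp+ libraries it was Ly6e, Ly6a, Ly6c1, Ly6d and Ly6c2. By FPKM, Ly6c1 ranked 15 and 23 among all genes in Ly6C+Selp- ECs and 434 and 687 in the Ly6C-Selp+ libraries, whereas Ly6e stayed between ranks 42 and 116 in the 6 libraries. Some neighbours in these orders overlapped in range. Ly6e and Ly6a did so in Ly6C+Selp- ECs (465 to 616 against 414 to 599 FPKM), and Ly6c1 and Ly6e did so in Ly6C+Selp+ ECs (351 to 522 against 340 to 433 FPKM). Together the 5 genes took 0.748% and 0.714% of the summed FPKM in the Ly6C+Selp- libraries, 0.480% and 0.407% in the Ly6C+Selp+ libraries, and 0.241% and 0.215% in the Ly6C-Selp+ libraries. This total includes Ly6c1, which encodes the antigen of the sort and had means of 851 FPKM in Ly6C+Selp- and 79.7 in Ly6C-Selp+ ECs. The part of Ly6c1 in the lower share across the Ly6C gate is therefore not a finding. Ly6c1 also differed within the Ly6C+ gate, with a mean of 436 FPKM in Ly6C+Selp+ ECs. How much of the lower share the gate set was not tested. In bulk RNA, fewer expressing cells and less RNA per cell cannot be told apart.

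**Figure D1:**
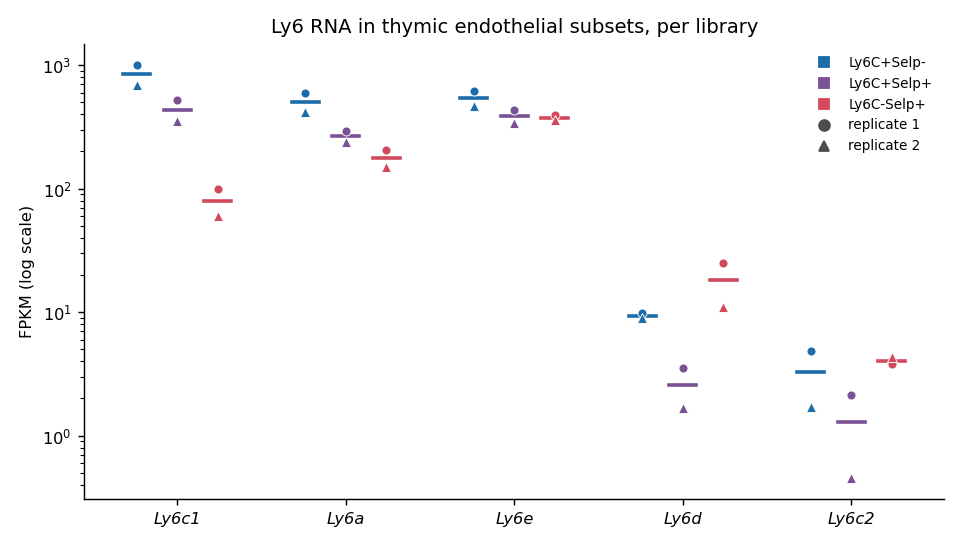
FPKM of the 5 Ly6 genes (x axis) on a log scale (y axis) in each of the 6 libraries, with circles for replicate 1, triangles for replicate 2 and bars for the mean of each subset. Ly6c1, Ly6a and Ly6e lie at or above 59.7 FPKM in all libraries, and Ly6d and Ly6c2 at or below 25.1 FPKM.

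Ly6c1 and Ly6c2 both encode Ly6C, the antigen of the sort, so their difference across the Ly6C gate is a check of the sort and not a finding. The genes are near-identical copies on the minus strand of chromosome 15 (mm9), with Ly6c1 at chr15:74874448-74879267 and Ly6c2 at chr15:74938591-74942379. Their coding sequences are both 396 bases long in GENCODE vM1 and differ at 9 bases (97.7% identical). The first 100 coding bases hold 6 of these 9 differences. They are shown because reads within the coding sequence can be assigned to 1 of the genes only where such a base is covered. Capitals mark the bases that differ.
Ly6c1: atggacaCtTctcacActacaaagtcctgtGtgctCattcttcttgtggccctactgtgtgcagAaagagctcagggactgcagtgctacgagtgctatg
Ly6c2: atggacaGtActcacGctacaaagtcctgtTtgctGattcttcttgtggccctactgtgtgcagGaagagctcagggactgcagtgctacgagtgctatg
The longest run shared by the transcripts is 188 bases, and 114 of the 741 possible 100-base windows of the Ly6c1 transcript occur unchanged in Ly6c2. For the other pairs among the 5 genes, the longest shared run is 10 to 52 bases and 0 windows are shared. How fragments that match both copies were divided is not given in the sources used here, so the split between Ly6c1 and Ly6c2 is uncertain.

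Ly6c1 carried nearly all of the Ly6C RNA that the files list. It had 1010 and 692 FPKM in the Ly6C+Selp- libraries, 522 and 351 in the Ly6C+Selp+ libraries, and 99.6 and 59.7 in the Ly6C-Selp+ libraries. The libraries of the 3 subsets did not overlap, and the order of the subsets was the same in both replicates. The mean of the sort-negative subset was 79.7 ± 28.2 FPKM (SD, n = 2) against 851 ± 225 (SD, n = 2) in Ly6C+Selp- ECs, a ratio of 0.0936. Ly6c1 RNA was thus low but present in cells sorted as Ly6C-, from an estimated 130.1 and 132 fragments, and the part that cells of the other gate took in this level was not tested. The log2 fold change across the gate was -3.42 (limma adjusted p = 0.00067) against Ly6C+Selp- ECs and -2.46 (limma adjusted p = 0.0385) against Ly6C+Selp+ ECs. The second call was lost without Ly6C+Selp+ replicate 1 (limma adjusted p = 0.192), Ly6C-Selp+ replicate 1 (0.0552) or Ly6C-Selp+ replicate 2 (0.114).

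The Ly6C gate was the same for both Ly6C+ subsets, so a difference of Ly6c1 between them was not fixed by the sign of the gate, although their place within it is not known. Both replicates had less Ly6c1 in Ly6C+Selp+ than in Ly6C+Selp- libraries, by 0.95 in replicate 1 and 0.98 in replicate 2 on the log2 scale. The fitted log2 fold change was -0.96 (standard error 0.33, 95% interval -1.71 to -0.22). This missed the threshold (limma adjusted p = 0.452), and passed with the replicate block (limma adjusted p = 0.0318).

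Ly6c2 stayed near the limit of detection. Its values were 4.80 and 1.71 FPKM in the Ly6C+Selp- libraries, 2.15 and 0.452 in the Ly6C+Selp+ libraries, and 3.78 and 4.32 in the Ly6C-Selp+ libraries. These rest on an estimated 1 to 9.6 fragments per library. The Ly6C-Selp+ and Ly6C+Selp- libraries overlapped, with a log2 fold change of 0.35 (95% interval -0.77 to 1.46, limma adjusted p = 0.853). Against Ly6C+Selp+ ECs the Ly6C-Selp+ libraries lay higher without overlap, at a log2 fold change of 1.24 that did not pass (95% interval 0.12 to 2.35, limma adjusted p = 0.455). Unlike Ly6c1, Ly6c2 thus had no lower level listed on the Ly6C- side of the gate. As a share of the FPKM of both copies, Ly6c2 made up 0.129% to 0.474% in the 4 Ly6C+ libraries, and 3.65% and 6.74% in the Ly6C-Selp+ libraries. Nearly all of this total is Ly6c1, whose fall across the gate the sort fixed. The higher share therefore does not show a change of Ly6c2. Ly6C is also a classical monocyte antigen, and the summed level of 8 monocyte, macrophage and neutrophil markers was 30.5 to 228 FPKM in the Ly6C+Selp- libraries, 31.8 to 79.2 in the Ly6C+Selp+ libraries and 64.0 to 383 in the Ly6C-Selp+ libraries. Lyz2, the highest of them, had 18.5 to 296 FPKM. No gene of this list was at 0 in all libraries, and its part in the Ly6c2 values was not tested.

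The sequence before the start of each gene is shown because the copies differ widely in level. The windows are the 250 bases before the most upstream RefSeq start of each gene, on the minus strand of GRCm38.p6, at chr15:75048838-75049087 for Ly6c1 and chr15:75111972-75112221 for Ly6c2. Capitals mark the only match found to the motifs searched.
Ly6c1: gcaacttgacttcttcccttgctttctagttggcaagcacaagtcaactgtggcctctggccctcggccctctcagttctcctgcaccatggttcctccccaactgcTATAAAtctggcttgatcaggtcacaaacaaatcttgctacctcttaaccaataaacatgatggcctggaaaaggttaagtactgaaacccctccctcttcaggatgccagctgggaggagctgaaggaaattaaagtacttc
Ly6c2: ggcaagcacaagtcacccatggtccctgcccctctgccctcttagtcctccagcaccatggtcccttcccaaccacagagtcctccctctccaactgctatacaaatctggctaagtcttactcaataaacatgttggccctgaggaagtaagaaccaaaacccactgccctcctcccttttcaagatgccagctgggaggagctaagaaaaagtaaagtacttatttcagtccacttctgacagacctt
The motifs were TTCNNNGAA, the gamma-interferon activated site, the core of the interferon-stimulated response element, TATAAA, the TATA box, and CCACCC, bound by Krüppel-like factors. They were searched on both strands of whole 300-base windows that run on past the start. TATAAA began at position -143 from the Ly6c1 start, and 13.6% of all 32851 RefSeq windows hold it. A second Ly6c1 start had 2 overlapping matches to the reverse of CCACCC, which 31.5% of windows hold. These letters were not in the Ly6c2 windows, and neither interferon motif (8.3% and 3.44% of windows) was in any of the 4 windows of the copies. A match is a description of letters only.

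Ly6a encodes Sca-1, the stem cell antigen used to sort haematopoietic progenitors, which many ECs also carry. The sort did not use it. It lies at chr15:74825307-74828461 on the minus strand, between Ly6e and Ly6c1. Ly6a had 599 and 414 FPKM in the Ly6C+Selp- libraries, 293 and 239 in the Ly6C+Selp+ libraries, and 205 and 150 in the Ly6C-Selp+ libraries. As for Ly6c1, no subsets overlapped, and both replicates gave the same order.

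The mean of Ly6a was 2.85-fold lower in the Ly6C-Selp+ than in the Ly6C+Selp- subset, 178 ± 38.9 against 507 ± 131 FPKM (SD, n = 2 each). The log2 fold change was -1.50 (standard error 0.28, 95% interval -2.13 to -0.88), and it passed the threshold (limma adjusted p = 0.0163). Within replicate 1 it was -1.54 and within replicate 2 it was -1.46. The call was lost without Ly6C-Selp+ replicate 2, where the log2 fold change was -1.28 (limma adjusted p = 0.122). Between the Ly6C+ subsets the log2 fold change was -0.91 (standard error 0.28), which did not pass (limma adjusted p = 0.340) and passed with the replicate block (limma adjusted p = 0.0389). Between the Selp+ subsets it was -0.59 (95% interval -1.22 to 0.03, limma adjusted p = 0.534).

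Markers of 2 other cell types were also lowest in Ly6C-Selp+ ECs. The summed level of 8 fibroblast and pericyte markers was 270 to 607 FPKM in the Ly6C+Selp- libraries, 410 to 702 in the Ly6C+Selp+ libraries and 210 to 222 in the Ly6C-Selp+ libraries. In Ly6C-Selp+ against Ly6C+Selp- ECs 5 of the 8 had a log2 fold change below 0. The median of the 8 was -0.26, beside 0.08 over all genes tested. Pdgfrb, the growth factor receptor of pericytes, fell by 1.85 on the log2 scale (limma adjusted p = 0.0132). Rgs5, a pericyte gene and the highest of the list, was at -2.06 (limma adjusted p = 0.0575) and passed with the replicate block, which also called both genes lower between the Selp+ subsets. Acta2, the smooth muscle actin, was at 1.16, Dcn at 0.23 and Lum at 0.16, none of which passed. Erythroid markers summed to 84.4 to 140 FPKM, 26.4 to 51.4 FPKM and 0 to 10.9 FPKM in the same order of subsets. Both rows of Hba-a1, an alpha globin, fell in Ly6C-Selp+ against Ly6C+Selp- ECs (log2 fold changes of -4.68 and -4.71, limma adjusted p = 0.00168 and 8.81e-05). One of them also fell between the other pairs of subsets (limma adjusted p = 0.0483 and 0.0157), and with the replicate block the other did so between the Ly6C+ subsets. Between the Ly6C+ subsets the fibroblast and pericyte genes went different ways. Their sum was higher in the Ly6C+Selp+ library of each replicate, and Dcn and Lum, matrix proteins of fibroblasts, rose with the replicate block (means of 38.5 to 93.7 and 6.41 to 19.1 FPKM), whereas Rgs5 and Pdgfrb were at -0.01 and -0.08. The part of these cells in the Ly6a difference was not tested.

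Ly6e encodes a surface antigen of immature thymocytes, also called thymic shared antigen 1 or Sca-2, which interferon induces. It lies at chr15:74785481-74790335 on the plus strand. Ly6e had 616 and 465 FPKM in the Ly6C+Selp- libraries, 433 and 340 in the Ly6C+Selp+ libraries, and 392 and 361 in the Ly6C-Selp+ libraries. Both Selp+ subsets lay below the Ly6C+Selp- libraries, and they overlapped each other. The log2 fold change was -0.51 (95% interval -1.07 to 0.05, limma adjusted p = 0.425) for Ly6C-Selp+ against Ly6C+Selp- ECs and -0.48 (95% interval -1.04 to 0.08, limma adjusted p = 0.745) between the Ly6C+ subsets. Between the Selp+ subsets it was -0.03 (95% interval -0.59 to 0.53, limma adjusted p = 0.983), so a decrease of more than 0.59 or an increase of more than 0.53 lay outside the interval. With quantile normalization the first of these differences was -0.80 and passed (limma adjusted p = 0.0109).

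Ratios within a library do not depend on the scaling between libraries. The ratio of Ly6a to Ly6e was 0.974 and 0.890 in the Ly6C+Selp- libraries, 0.675 and 0.704 in the Ly6C+Selp+ libraries, and 0.524 and 0.416 in the Ly6C-Selp+ libraries, with no overlap between subsets. This ratio followed the same order of subsets as the level of Ly6a. The ratio of Ly6c1 to Ly6a behaved otherwise. It was 1.69 and 1.67 in the Ly6C+Selp- libraries and 1.78 and 1.47 in the Ly6C+Selp+ libraries, which overlapped, and 0.486 and 0.398 in the Ly6C-Selp+ libraries. Between the Ly6C+ subsets Ly6c1 and Ly6a were thus both lower by a similar factor, 1.95-fold and 1.91-fold in the means, while across the Ly6C gate, which the sort fixed for Ly6c1, the difference of Ly6c1 exceeded that of Ly6a. With 2 libraries against 2, an exact permutation test cannot go below p = 0.33, and no test of these ratios was made.

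**Figure D2:**
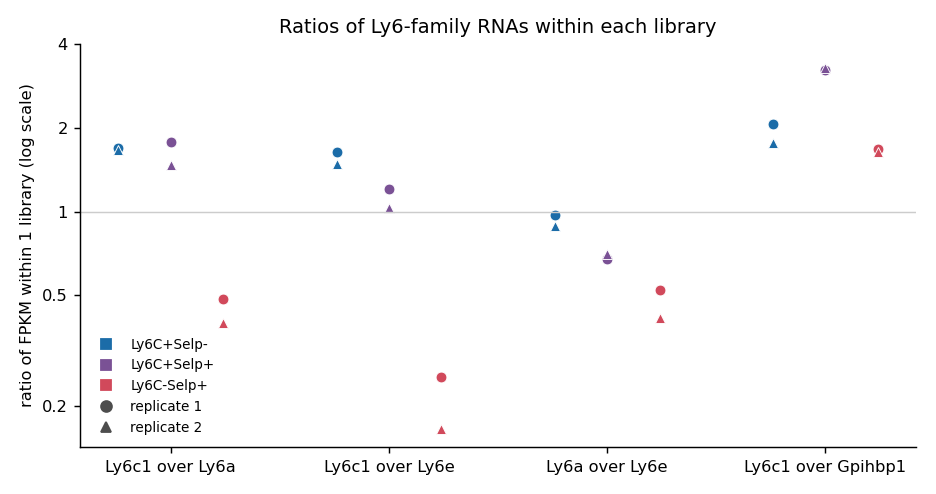
Ratio of the FPKM of the named genes within 1 library (y axis, log scale), with colours for the subsets, circles for replicate 1 and triangles for replicate 2. Ly6a over Ly6e declines from 0.974 and 0.890 to 0.524 and 0.416 over the subsets, and Ly6c1 over Ly6a is lower in both Ly6C-Selp+ libraries (0.486 and 0.398) than in the other 4.

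Ly6d encodes ThB, an antigen of B cells, of lymphoid progenitors set towards the B lineage and of some thymocytes and stratified epithelia. It lies at chr15:74592486-74593997 on the minus strand, at the other end of the cluster from Ly6c2. Ly6d had 9.82 and 8.91 FPKM in the Ly6C+Selp- libraries, 3.52 and 1.66 in the Ly6C+Selp+ libraries, and 25.1 and 11.1 in the Ly6C-Selp+ libraries. It was the only one of the 5 genes highest in both Ly6C-Selp+ libraries and lowest in both Ly6C+Selp+ libraries without overlap. The estimated fragments were few, at 14.7 and 17, 4 and 3, and 26.9 and 21 in that order of libraries.

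The largest difference of Ly6d was between the Selp+ subsets, 18.1 ± 9.90 against 2.59 ± 1.32 FPKM (SD, n = 2 each). Its log2 fold change was 2.36 (standard error 0.42, 95% interval 1.41 to 3.31), above that of 99.8% of the genes tested, with 2.53 within replicate 1 and 2.18 within replicate 2. The limma adjusted p was 0.0727, just short of the threshold, and it was 0.0098 with the replicate block. For Ly6C+Selp+ against Ly6C+Selp- ECs the log2 fold change was -1.58 (standard error 0.42, limma adjusted p = 0.24), which passed with the replicate block (limma adjusted p = 0.0389). For Ly6C-Selp+ against Ly6C+Selp- ECs it was 0.78 (95% interval -0.17 to 1.73, limma adjusted p = 0.492).

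Summed markers of lymphoid cells, like Ly6d, were higher in both Ly6C-Selp+ than in both Ly6C+Selp+ libraries, although not every single marker was. The summed level of 6 B cell and plasmacytoid dendritic cell markers was 8.62 and 4.65 FPKM in the Ly6C+Selp- libraries, 6.73 and 1.41 in the Ly6C+Selp+ libraries, and 21.5 and 10.5 in the Ly6C-Selp+ libraries. The highest of them was Cd79a, a chain of the B cell receptor complex, at 0.24 to 7.97 FPKM. The summed level of 11 thymocyte and T cell markers was 112 and 29.5, 75.1 and 47.7, and 194 and 88.1 FPKM in the same order, with Lck highest. Of the markers tested, 0 of 5 and 0 of 9 passed the threshold in limma in any comparison, beside 4.14% or fewer of all genes. Between the Selp+ subsets 3 and 2 of them had an unadjusted p under 0.05, a share not counted over all genes. There 4 of 5 and 7 of 9 lay higher in Ly6C-Selp+ ECs without overlap, where 41.0% of all genes separated in either direction. Pax5, a B cell marker, overlapped at 0 and 0.514 against 0 and 0.804 FPKM, and had 3.17 and 1.27 in Ly6C+Selp- libraries. Cd3e and Cd3g also overlapped. With the replicate block Siglech rose in Ly6C-Selp+ against Ly6C+Selp- ECs, and Cd3g rose in Ly6C-Selp+ ECs against both Ly6C+Selp- ECs and Ly6C+Selp+ ECs (log2 fold change 1.54, limma adjusted p = 0.0355 for the latter). No gene of either list was at 0 in all libraries.

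Ly6d as a ratio to the summed B cell and plasmacytoid dendritic cell markers was 1.14 and 1.92 in the Ly6C+Selp- libraries, 0.524 and 1.18 in the Ly6C+Selp+ libraries, and 1.17 and 1.06 in the Ly6C-Selp+ libraries. This ratio overlapped between the Selp+ subsets. In Ly6C+Selp+ replicate 2 it rests on an estimated 3 fragments of Ly6d and a marker sum of 1.41 FPKM. The ratio of Ly6d to the thymocyte and T cell markers was 0.0877 and 0.302, 0.0469 and 0.0349, and 0.130 and 0.126, without overlap between the Selp+ subsets. The 8 thymic epithelial markers summed to 19.2 to 49.8 FPKM, 18.7 to 24.9 FPKM and 15.7 to 52.4 FPKM over the 3 subsets and overlapped, with Krt8 highest. Keratins of this list differed all the same. Krt14 was at 0 in both Ly6C+Selp+ libraries and at 3.98 and 1.95 FPKM in the Ly6C-Selp+ libraries (limma adjusted p = 0.133, and 0.0483 with the replicate block). Krt5 had 12.5 and 7.44, 2.54 and 1.49, and 5.38 and 3.51 FPKM in the order of subsets above, and with the replicate block it was lower in both Selp+ subsets than in Ly6C+Selp- ECs. The part of these cells in the Ly6d level was not tested.

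**Figure D3:**
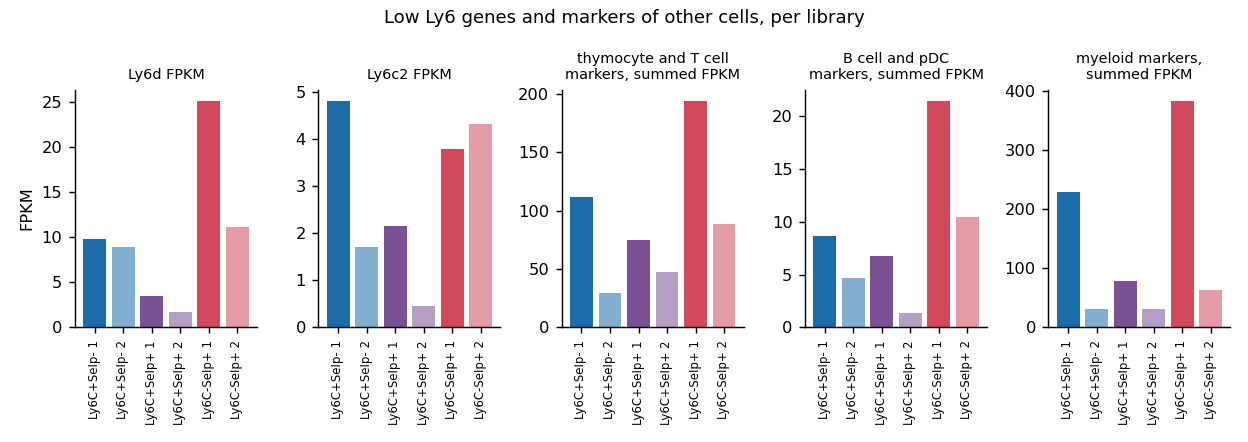
FPKM of Ly6d and Ly6c2 and summed FPKM of marker lists for thymocytes and T cells, B cells and plasmacytoid dendritic cells (pDC), and myeloid cells, as 1 bar for each library with its own linear axis from 0. Ly6C-Selp+ replicate 1 is highest for Ly6d (25.1 FPKM) and for all 3 marker lists, and the Ly6C+Selp+ libraries are lowest for Ly6d (3.52 and 1.66 FPKM).

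Read over all genes tested, 2 of the 5 Ly6 genes passed the threshold for Ly6C-Selp+ against Ly6C+Selp- ECs, Ly6c1 and Ly6a, both lower, against 4.14% of all 11717 genes (8.29% with the replicate block). Ly6c1 is one of these by the sort. Between the Ly6C+ subsets 0 of 5 passed in limma, where 0.393% of all genes did. With the replicate block 3 passed there (Ly6c1, Ly6a and Ly6d, all lower), where 1.56% of all genes did. For Ly6C-Selp+ against Ly6C+Selp+ ECs 1 of 5 passed, Ly6c1, against 0.222% of all genes, and with the replicate block Ly6d was called higher as well, against 1.95%. Separation of the libraries is a weaker criterion, met by 37.9%, 33.6% and 41.0% of all genes in the 3 comparisons, and by 4 of the 5 Ly6 genes in each. These comparisons share libraries and are not independent of each other. In the last one, the median log2 fold change of all genes was 0.14 and not 0, and relative to it Ly6c1 was at -2.59, Ly6a at -0.73, Ly6e at -0.17, Ly6d at 2.22 and Ly6c2 at 1.10.

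**Figure D4:**
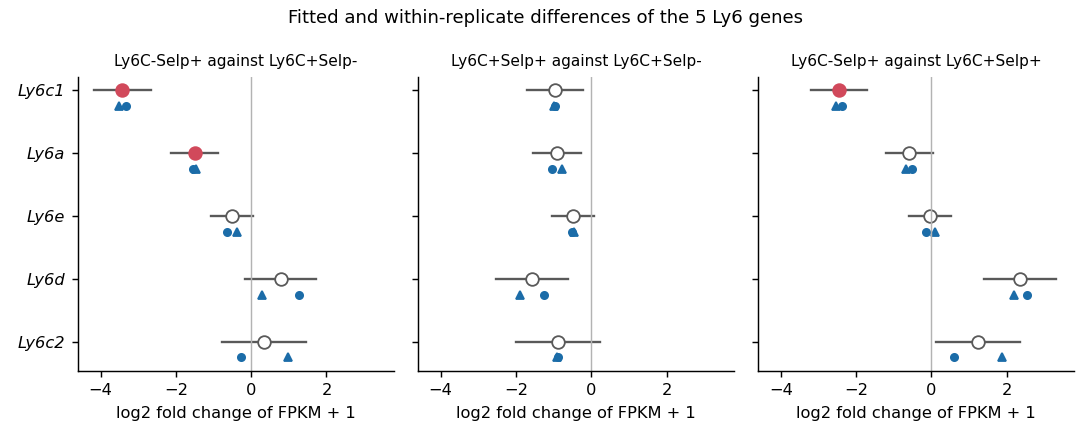
Log2 fold change of FPKM + 1 (x axis) for the 5 genes in the 3 comparisons, as large circles with 95% intervals, filled where the limma adjusted p is below 0.05, and below each as small blue circles (replicate 1) and triangles (replicate 2) the differences within a replicate. Ly6c1 and Ly6a are filled for Ly6C-Selp+ against Ly6C+Selp- ECs (-3.42 and -1.50), and the within-replicate values of these genes lie close to the fitted ones.

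All 5 genes lie within 1 interval of chromosome 15, and of the 23 other genes that begin within 500000 bases of them, 8 were listed at 0 in all libraries and 5 passed the filter on low values. Only 1 of those 5 was called for Ly6C-Selp+ against Ly6C+Selp- ECs, beside 4.14% of all genes. It was Gpihbp1, the Ly6-family protein that carries lipoprotein lipase to the luminal face of capillary ECs. Gpihbp1 had 490 and 392 FPKM in the Ly6C+Selp- libraries, 161 and 107 in the Ly6C+Selp+ libraries, and 59.3 and 36.5 in the Ly6C-Selp+ libraries, without overlap. Its log2 fold change was -3.21 (SE 0.31, limma adjusted p = 0.00067). Between the Ly6C+ subsets its log2 fold change was -1.73 (limma adjusted p = 0.0640, and 0.0040 with the replicate block), and between the Selp+ subsets it was -1.48 (limma adjusted p = 0.119, and 0.00981 with the replicate block). The ratio of Ly6c1 to Gpihbp1 was 2.06 and 1.76 in the Ly6C+Selp- libraries and 1.68 and 1.64 in the Ly6C-Selp+ libraries, and it was higher, at 3.24 and 3.27, in Ly6C+Selp+ ECs. Within the Ly6C+ gate, Gpihbp1 was thus lower, set against Ly6c1, in Ly6C+Selp+ than in Ly6C+Selp- libraries. Across the gate the sort selected on the product of Ly6c1, so the ratio in Ly6C-Selp+ libraries is not a result about Gpihbp1. Of the other tested neighbours, Arc, Psca, Them6 and Lynx1 were at or below 7.69 FPKM.

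**Figure D5:**
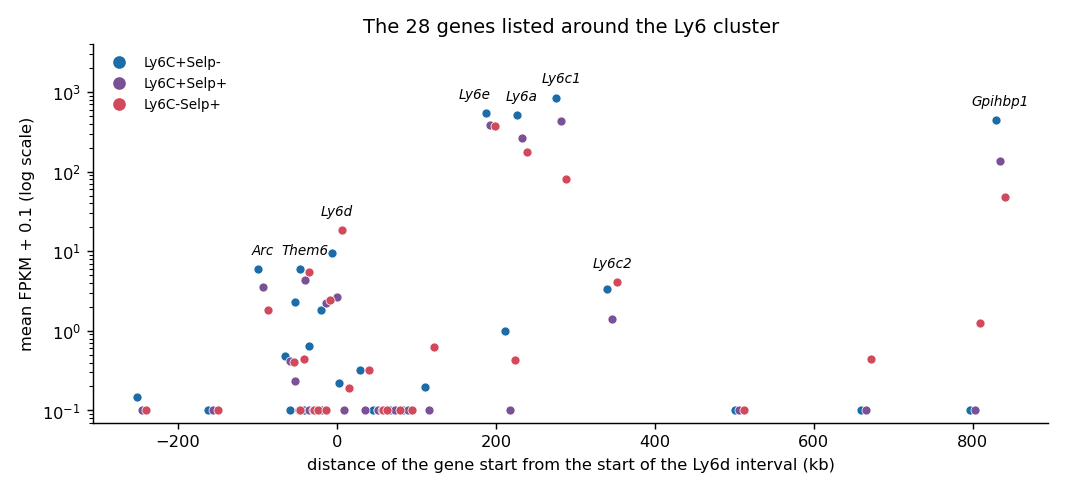
Mean FPKM + 0.1 (y axis, log scale) in each subset of the 28 genes listed around the Ly6 cluster, against the distance of the gene start from the start of the Ly6d interval (x axis, kb), with points of 1 gene shifted sideways for legibility. Ly6e, Ly6a, Ly6c1 and Gpihbp1 stand far above the other genes, and of them Ly6e changes least between subsets.

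RNA of most other Ly6 family genes that were found was low in thymic ECs. Of 33 listed, 28 were found and 7 passed the filter on low values. In Ly6C-Selp+ against Ly6C+Selp- ECs, 1 of the 7 passed the threshold, Gpihbp1, beside 4.14% of all genes. With the replicate block 3 did, beside 8.29% of all genes, adding Cd59a (higher) and Ly6g6d (lower). Ly6g6d rests on an estimated 7 fragments over all libraries. The median log2 fold change of the 7 tested genes was -0.66, beside 0.08 over all genes tested. Plaur, the urokinase receptor, had 23.7 to 35.8 FPKM in all libraries (log2 fold change 0.05, limma adjusted p = 0.965). Cd59a, an inhibitor of complement lysis, had 7.84 and 2.97 FPKM in the Ly6C+Selp- libraries and 11.9 to 14.8 in the 4 Selp+ libraries (log2 fold change 1.22, limma adjusted p = 0.147).

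The genes that build and attach the GPI anchor, on which most Ly6 proteins depend, were also read. Of 28 tested, 0 passed in limma for Ly6C-Selp+ against Ly6C+Selp- ECs, between the Ly6C+ subsets or between the Selp+ subsets. Of all genes, 4.14%, 0.393% and 0.222% did, so 0 of 28 says little in any of them, and least in the last 2. With the replicate block 0 of the 28 passed as well, where 8.29%, 1.56% and 1.95% of all genes did. In the same order, 0, 0 and 2 of the 28 genes had an unadjusted p under 0.05, a share not counted over all genes. Their median log2 fold change was 0.16 for Ly6C-Selp+ against Ly6C+Selp- ECs. Pigt, a subunit of the transamidase that attaches the anchor, was the highest of them on average. It had 31.9 and 30.7 FPKM in the Ly6C+Selp- libraries and 41.2 and 47.1 in the Ly6C-Selp+ libraries (limma adjusted p = 0.420).

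Interferon signalling genes were listed because interferon is a known inducer of Ly6a, Ly6c1 and Ly6e. Of 15 receptors and transducers, 1 rose in Ly6C-Selp+ against Ly6C+Selp- ECs, beside the 4.14% of all genes called, and this was Irf8, an interferon regulatory factor of myeloid and B cells. It had 33.2 and 14.9 FPKM in the Ly6C+Selp- libraries and 75.1 and 62.2 in the Ly6C-Selp+ libraries (log2 fold change 1.57, limma adjusted p = 0.0433). With the replicate block Jak1, a kinase of interferon receptors, rose as well (log2 fold change 0.88, limma adjusted p = 0.0257). Irf1 was the highest of this list, at 211 to 364 FPKM, and did not pass (log2 fold change -0.38, limma adjusted p = 0.640).

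Of 39 interferon-induced genes tested, 1 rose and 1 fell in the same comparison, also beside 4.14% of all genes, and the median log2 fold change was 0.20, beside 0.08 over all genes tested. Gbp6, a guanylate-binding protein, had 13.5 and 10.04 FPKM in the Ly6C+Selp- libraries and 43.8 and 38.4 in the Ly6C-Selp+ libraries (log2 fold change 1.73, limma adjusted p = 0.0063). Oas2, an oligoadenylate synthetase of the antiviral response, had 9.91 and 7.17 FPKM against 0 and 0.0706 (log2 fold change -3.19, limma adjusted p = 0.0015). With the replicate block 2 rose, Gbp6 and Cxcl9, and 2 fell, Oas2 and Rsad2, beside 8.29% of all genes. Ifitm3 and B2m, the most abundant of the list, had log2 fold changes of 0.03 and 0.31 and did not pass (limma adjusted p = 0.978 and 0.796). Between the Ly6C+ and between the Selp+ subsets 0 genes of either interferon list passed in limma, beside 0.393% and 0.222% of all genes. In the former pair 2 transducers and 6 induced genes had an unadjusted p under 0.05, and in the latter 1 and 5 did. The share of all genes with such a p was not counted, so these numbers are a description only. With the replicate block 3 interferon-induced genes (Oas2, Gbp6 and Cxcl9) passed between the Ly6C+ subsets, beside 1.56% of all genes.

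The genes whose log2(FPKM + 1) followed each Ly6 gene most closely over the 6 libraries were taken from the 4196 tested genes with a mean of at least 10 FPKM. The 6 libraries share subset, depth and replicate number, so these values are a description with no test. For Ly6c1 they were Pparg (r = 0.999), St6galnac2 (0.997), Cxcl12 (0.995), Aqp7 (0.994) and Itih5 (0.991). Pparg encodes a nuclear receptor of lipid metabolism, Cxcl12 a chemokine and Aqp7 a glycerol channel. For Ly6a they were Mepce (r = 0.992), Pcdh12 (0.990), Tsc22d3 (0.989), Dusp7 (0.987) and Nrp1 (0.984), of which Pcdh12 is an endothelial protocadherin and Nrp1 a co-receptor of VEGF. For Ly6e they were Sdpr (r = 0.997), Ednrb (0.993), Mtss1 (0.989), S1pr1 (0.979) and Eml1 (0.978), among them the endothelin receptor B, the caveolar protein Sdpr and the sphingosine 1-phosphate receptor S1pr1. No gene stood in more than 1 of these lists. Lists this short, drawn from 4196 genes, can miss each other even for similar profiles, so this does not show different companions. The sort fixed the fall of Ly6c1 across the Ly6C gate, and the part of this in its list was not tested. Among the 3 abundant Ly6 genes, r was 0.93 for Ly6c1 with Ly6a, 0.90 for Ly6a with Ly6e and 0.71 for Ly6c1 with Ly6e.

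The lists of the rare genes held other RNAs. For Ly6d the closest were Sumo3 (r = 0.985), Mrps24 (0.984), D17Wsu104e (0.963), Prpf38b (0.958) and Traf7 (0.957). For Ly6c2 they were Itm2c (r = 0.991), Rpl36 (0.988), Prdx2 (0.987), Manbal (0.983) and Vps28 (0.982). Ly6d and Ly6c2 had r = 0.79 with each other, and Ly6c1 had -0.43 with Ly6d and -0.27 with Ly6c2. Both rest on few fragments, and the part of counting error in these values was not tested.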

How the data were processed

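The authors trimmed the reads of 6 libraries, mapped them to mm9 with TopHat, used Cufflinks to obtain FPKM for every library separately, and deposited the FPKM with 95% interval bounds. The submitters' processing notes name CASAVA 1.8, TopHat2 2.0.10, Cufflinks 2.1.1 and Cuffdiff. The gene annotation is not given in the sources used here. From the deposited FPKM, log2(FPKM + 1) was taken for the 11717 of 24457 genes with at least 1 FPKM in at least 2 libraries and tested with limma 3.58.1 in R 4.3.3, with a trend, all 6 libraries in 1 fit and no rescaling. Fold changes on this scale are understated for low genes. P-values were adjusted over all genes tested (Benjamini-Hochberg, threshold 0.05). Spike-in and reporter rows were left out. Fragments per gene were estimated from the interval width as if it held counting error alone, so they cover counting error only, and 1 fragment was worth a median of 0.108 to 0.184 FPKM. Coding sequence and strand came from GENCODE vM1 (mm9) and promoters from RefSeq (GRCm38.p6), where 2 of the 5 genes had entries.

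The genes, the marker and pathway lists and the tests were chosen with earlier results of these data known. Named were the 5 genes, of each list those past the threshold and up to 4 of the highest that did not pass, and the 5 genes most like each. Of the marker lists, other genes that did not pass were chosen after their values were seen. Libraries of 1 replicate number deviated together from their subset means (r = 0.199, 0.306 and 0.180 over 11717 genes), so the numbers were taken to pair the libraries. The labels do not say that a number marks a shared sort, so the pairing is an assumption drawn from these same data. In each subset replicate 1 also had the higher summed FPKM, and the part of this in r was not tested. The replicate block is given where it changes a call of the genes or lists, and calls made only with it depend on the assumption. Alternatives were other pseudocounts, filters and scalings, no trend, only the subsets compared, the block and each library left out.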

Additional observations from a re-analysis of the deposited data

Results flagged for a closer look

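The rows of the tables that stand for a red fluorescent reporter (mRFP) and not for a mouse gene were above 3 estimated fragments in all 6 libraries of wildtype cells. They held 31.9, 31 and 34.2 estimated fragments in replicate 1 of Ly6C+Selp-, Ly6C+Selp+ and Ly6C-Selp+ ECs, and 4, 11 and 7 in replicate 2. No control sample exists for this row, and it did not separate the subsets.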

How the results depend on the processing

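Of 222 recomputed values of the 5 genes, 203 kept their direction and their side of the threshold, 9 were no longer past it, 7 came past it and 3 changed sign. With no filter on low values, Ly6c1 (-3.42, limma adjusted p = 0.11) and Ly6a (-1.50, adjusted p = 0.269) missed the threshold for Ly6C-Selp+ against Ly6C+Selp- ECs, and so did Ly6c1 (-2.46, adjusted p = 0.489) against Ly6C+Selp+ ECs. Without the trend, Ly6a (-1.50, adjusted p = 0.0531) and Ly6c1 between the Selp+ subsets (-2.46, adjusted p = 0.0855) missed it. With quantile normalization Ly6e (-0.80, adjusted p = 0.0109) passed for Ly6C-Selp+ against Ly6C+Selp- ECs. Ly6d between the Selp+ subsets passed with quantile normalization (2.25, adjusted p = 0.0424) and with upper quartile scaling (2.23, adjusted p = 0.0398). Ly6c2 was below the filter of 5 FPKM and has no value there. The cause of these changes was not tested.

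The replicate block brought past the threshold Ly6c1 (-0.96), Ly6a (-0.91) and Ly6d (-1.58) between the Ly6C+ subsets and Ly6d (2.36) between the Selp+ subsets, and it changed no other call of the 5 genes. With the block, 971, 183 and 229 genes were called in the 3 comparisons, in place of 485, 46 and 26.

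With 1 library left out at a time, where the lone library of a subset was assumed to vary like the others, the log2 fold change of Ly6c1 was -3.78 to -3.06 and that of Ly6a -1.77 to -1.23 for Ly6C-Selp+ against Ly6C+Selp- ECs. Ly6a lost its call without Ly6C-Selp+ replicate 2. Between the Selp+ subsets Ly6c1 was -2.82 to -2.09, and it missed the threshold without Ly6C+Selp+ replicate 1 (adjusted p = 0.192), Ly6C-Selp+ replicate 1 (0.0552) or Ly6C-Selp+ replicate 2 (0.114). Ly6c2 changed sign for Ly6C-Selp+ against Ly6C+Selp- ECs without Ly6C+Selp- replicate 2 (-0.20, range to 0.90). Ly6e changed sign between the Selp+ subsets without Ly6C+Selp+ replicate 1 (0.14) and without Ly6C-Selp+ replicate 2 (0.03), with a lowest value of -0.20.

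The number of genes called was 102, 10 and 2 with no filter in the 3 comparisons, and 233 to 425, 12 to 46 and 5 to 47 with 1 library left out. Quantile normalization gave 103 between the Ly6C+ subsets (73 higher, 30 lower) and 90 between the Selp+ subsets (22 higher, 68 lower). Upper quartile scaling gave 98 (70 and 28) and 100 (25 and 75), against 46 (38 and 8) and 26 (11 and 15) unscaled. Without the trend there were 15 and 10, and with only the Selp+ subsets in the fit 40. Ly6d, with 3 to 26.9 estimated fragments a library, and Ly6c2, with 1 to 9.6, are limited by depth.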
